A study of Rattus norvegicus with 24 samples.

Results

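A set of 71 probe sets was bright in rat testis at puberty and near the floor of the array before birth. They were chosen by 2 thresholds on the mean linear intensity: 5000 or more over the 4 PND35 oil-oil arrays and below 100 over the 4 GD20 oil arrays. Of 31042 probe sets, 899 had an oil-oil mean of 5000 or more and 84 passed both thresholds. The protamines and transition proteins, Hils1, the germ cell glycolytic enzymes and Sycp3, and all symbols beginning with Tekt, Spag, Akap, Tub, Cfap, Kif, Dyn or Dna were to be set aside. This removed 13 of the 84: Akap3, Cfap126, Cfap161, Cfap299, Dynlrb2, Gapdhs, Hils1, Prm1, Prm3, Tekt2, Tekt4, Tnp1 and Tnp2. No other probe set under these names, Sycp3 included, passed both thresholds. Of the 71 members, 66 carry 1 gene symbol each, 1 carries several symbols of the Hmgb4-like family, and 4 carry none.

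The study exposed Fisher 344 rats (spelled as labelled) to dibutyl phthalate (DBP), a plasticizer, and hybridised total RNA of detunicated whole testis to 24 Affymetrix Rat230_2 arrays, 4 in each of 6 groups. PND35 DBP-DBP pups were born to dams gavaged with 50 mg/kg DBP daily over gestational days 12 to 20 (GD12 to GD20), and received a single gavage of 500 mg/kg DBP on postnatal day 35 (PND35). PND35 DBP-oil pups had the same DBP before birth and a corn oil gavage at PND35, oil-DBP pups had corn oil through the dam and 500 mg/kg DBP at PND35, and oil-oil pups had corn oil at both times. All PND35 testes were taken 6 h after the last gavage. GD20 DBP testes came from litters of dams given 50 mg/kg DBP daily over GD12 to GD20 and killed 6 h after the last dose, and GD20 oil testes from dams given corn oil daily. The labels give no interval after the last dose for the oil dams, and they mark the array of oil dam 2 as pooled from several samples. The animals carried no genetic modification.

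The array reads the abundance of a transcript as the brightness of a set of short probes, here a linear intensity scaled per array, and brightness is comparable between arrays for 1 probe set but not between probe sets. The trimmed mean of every array was 500.1 to 500.2, the scaling set by the depositors, and the RNA integrity numbers were 8.2 to 8.9. The median probe set read 101 to 114 on PND35 arrays and 165 to 175 on GD20 arrays. The poly-A spike-in controls, RNAs added during labelling, were in an upper class (mean log2 intensity 7.31 to 7.53) on all 4 DBP-DBP arrays and those of DBP-oil pups 132 and 134, and in a lower class (5.90 to 6.14) on all other PND35 arrays. The GD20 DBP array of dam 21 stood apart from the other 7 GD20 arrays for the members and is given separately throughout. Nothing in the labels says how many pups of a litter were used, so p-values measure the spread between these pups.

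At GD20 the rat testis holds gonocytes, the fetal germ cells, among Sertoli, Leydig and peritubular cells. By PND35 the first wave of spermatogenesis has passed through meiosis to haploid round spermatids. Spermatids transcribe large amounts of messages for the sperm tail, acrosome and compacted nucleus, often with a delay before translation. In whole testis RNA, fewer cells of a type and less RNA per cell cannot be told apart, and nothing in these arrays assigns a member to a cell type. Of 11 spermatid marker genes on the array, 3 were members (Odf1, Smcp and Tssk2), and no member was in the lists of markers of spermatogonia, gonocytes, spermatocytes, Sertoli, Leydig, peritubular, endothelial or blood cells. The label of the set as germ cell transcripts therefore rests on those 3 marker genes and on what is known of the others. Prm1, Tnp1 and Tnp2, also among the 11 spermatid markers, passed both thresholds and were set aside by symbol. The rule itself does not select for germ cells: Aqp8, a water channel listed here as a Sertoli marker, had an oil-oil mean of 5166 and missed the set by its GD20 oil mean of 102.

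The promoters of the named members were read from RefSeq (GRCr8) as the 250 bases before and 50 bases after the start site that the promoter table uses, and 58 of the 66 genes had such a window. In 32 of the 58 that site was the outer end of the gene as the gene table lists it, and in 26 it lay further inside, by more than 1000 bases in 9 of them (up to 31808 in Ccdc30). Most of these windows held few CG pairs. The ratio of observed to expected CG pairs had a median of 0.36 in the members, against 0.72 in the 11701 genes of the array with a window and 0.88 in 211 genes at 5000 or more both at PND35 oil-oil and at GD20 oil. The ratio was under 0.5 in 39 of the 58 members (67.2%), against 28.6% of the array genes and 8.06% of the genes bright at both ages, a description with no test. Among windows at the outer end of the gene alone, a comparison added after the data were seen, the ratio was under 0.5 in 24 of 32 members, against 30.7% of 5324 array genes. Median GC content was 53.8% in members and 60.0% in array genes. The 3 windows with CG in capitals below span the range: Smcp had the lowest ratio of all members (0.07), Cmtm2a lay near the median (0.31), and Ccdc96 had the highest (1.07). The Garin5a window is shown because it was the only member's window with the full letters TGACGTCA, known as a site of the cyclic AMP response element family, and there TGACG and its reverse complement CGTCA are in capitals. Each line gives the 250 bases before the start site of the window, which was the outer end of the gene for Smcp, Cmtm2a and Ccdc96 and lay 24 bases inside it for Garin5a, 5′ to 3′ on the strand of the gene: Smcp at chr2:180861565-180861814 (minus strand), Cmtm2a at chr19:677904-678153 (plus), Ccdc96 at chr14:78503716-78503965 (minus) and Garin5a at chr1:104125251-104125500 (plus).
Smcp: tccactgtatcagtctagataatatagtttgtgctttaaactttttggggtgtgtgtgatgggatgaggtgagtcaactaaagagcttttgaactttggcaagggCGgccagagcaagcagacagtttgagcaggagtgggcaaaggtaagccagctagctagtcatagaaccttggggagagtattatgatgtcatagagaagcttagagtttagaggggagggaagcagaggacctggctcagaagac
Cmtm2a: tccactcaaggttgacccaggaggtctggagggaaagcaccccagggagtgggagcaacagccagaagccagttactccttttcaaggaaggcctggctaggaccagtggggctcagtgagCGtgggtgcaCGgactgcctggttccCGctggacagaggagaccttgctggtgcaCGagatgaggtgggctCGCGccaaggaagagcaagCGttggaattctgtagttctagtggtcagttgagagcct
Ccdc96: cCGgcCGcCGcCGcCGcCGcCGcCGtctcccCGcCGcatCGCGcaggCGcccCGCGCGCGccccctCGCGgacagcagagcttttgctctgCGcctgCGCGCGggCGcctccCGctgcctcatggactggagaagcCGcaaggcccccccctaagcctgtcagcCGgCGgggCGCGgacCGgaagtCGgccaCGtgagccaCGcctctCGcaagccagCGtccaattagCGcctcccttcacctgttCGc
Garin5a: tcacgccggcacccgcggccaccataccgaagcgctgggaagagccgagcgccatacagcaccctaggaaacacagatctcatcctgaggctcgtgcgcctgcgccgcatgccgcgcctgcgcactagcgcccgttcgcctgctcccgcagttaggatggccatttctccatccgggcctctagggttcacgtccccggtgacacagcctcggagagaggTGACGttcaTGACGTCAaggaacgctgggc

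Smcp had 1 CG pair in the 250 bases, Cmtm2a had 7 and Ccdc96 had 38. Other members with many, by the ratio, were Dbil5 (0.92), Garin5a (0.91), Marchf11 (0.87) and Cage1 (0.84). TGACGTCA began 21 bases before the start site of the Garin5a window, just inside the gene as the gene table lists it, overlapping 2 of the 3 TGACG or CGTCA matches there. It was in 1 of 58 member windows (1.72%), 2.85% of array gene windows and 1.91% of all 27457 RefSeq windows of this length. TGACG or CGTCA alone was in 17.2% of member windows, 29.2% of array gene windows and 22.0% of all windows. GTTGCCA or TGGCAAC, letters of the RFX family, was in 5.17% of member windows, 3.91% of array gene windows and 4.45% of all windows, and AACTGNC or GNCAGTT, letters of the MYB family, was in 17.2% of member windows, 11.4% of array gene windows and 13.3% of all windows. TATAAA or TTTATA was in 10.3% of member windows, 8.46% of array gene windows and 14.3% of all windows. ACAATG or CATTGT, letters of the SOX family, was in 13.8% of member windows, 7.56% of array gene windows and 13.0% of all windows. All letters were searched on both strands of the 300-base windows, and a match is a description of the letters, not of a bound site.

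**Figure D1:**
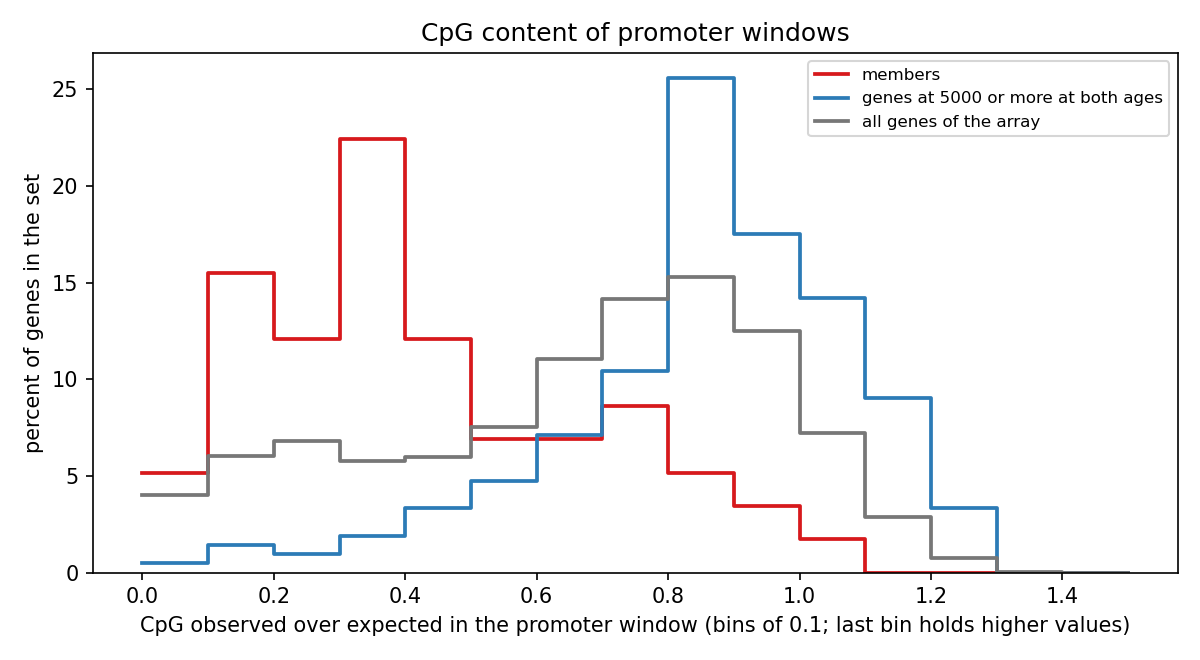
Share of genes (percent, y axis) by the ratio of observed to expected CG pairs in the promoter window (x axis, bins of 0.1), for 58 members, 211 genes at 5000 or more at both ages and 11701 array genes. Most members lie below 0.5, where 8.06% of the genes bright at both ages lie.

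The genes were also short. Of the 66 members in the RefSeq gene table, 14 spanned fewer than 1500 bases from start to end (21.2%), against 2.12% of 14162 array genes, and the median span was 8673 bases in members and 22337 in array genes. H2al2l, a histone H2A-like gene, spanned 492 bases, Hspb9 646, Hmgb4 683 and Cetn1 703, while Kctd16 spanned 294623. H2al2l was the 1 member on the X chromosome (1.52% of members, against 3.13% of array genes). RefSeq classes 62 of the 66 as protein coding and 4 as long non-coding RNA (C7h12orf54, LOC102547352, LOC102555078 and LOC102555525).

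The oil-oil means of the members were 5007 to 27774, with a median of 8304, and 26 of the 71 were at 10000 or more. The ratio of the oil-oil mean to the GD20 oil mean was 63.5 to 6734 with a median of 199. These values chose the members and carry no test. The members nearest the upper threshold were Fam209 (oil-oil mean 5007), Tmem247 (5132), H2al2l (5314) and a probe set with no symbol (5408), and those that just missed it were C3h20orf144 (4996), Rnf151 (4961), Slco6b1 (4842) and Saxo4 (4831). Nearest the lower threshold were Ggnbp1 (GD20 oil mean 99.1), Spata19 (93.9), Cage1 (92.6) and Morn5 (88.7), and just outside it were Aqp8 (102), Izumo4 (103), Gsto2 (105) and Misp3 (106). The GD20 oil mean was under 20 in 15 members and 50 or more in 30, so the size of the ratio depends on a floor that differs from probe set to probe set.

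The age difference was also present on the arrays that the rule did not use. Over the 12 PND35 arrays of DBP-DBP, DBP-oil and oil-DBP pups, the members read 2484 to 31085. On the GD20 DBP arrays of dams 16, 18 and 19 they read 1.02 to 167. For all 71 members, all 12 of these PND35 arrays lay above all 4 GD20 DBP arrays, dam 21 included, as was the case for 15.6% of all probe sets. The lowest of the 12 was 13.8 times or more the highest GD20 DBP array for each member. All GD20 testes were extracted with Trizol, but at PND35 only those of oil-oil pup 104 and oil-DBP pup 115. The members had medians of 8575 and 6322 on the arrays of these pups. The part of the extraction method in the age difference was not tested.

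**Figure D2:**
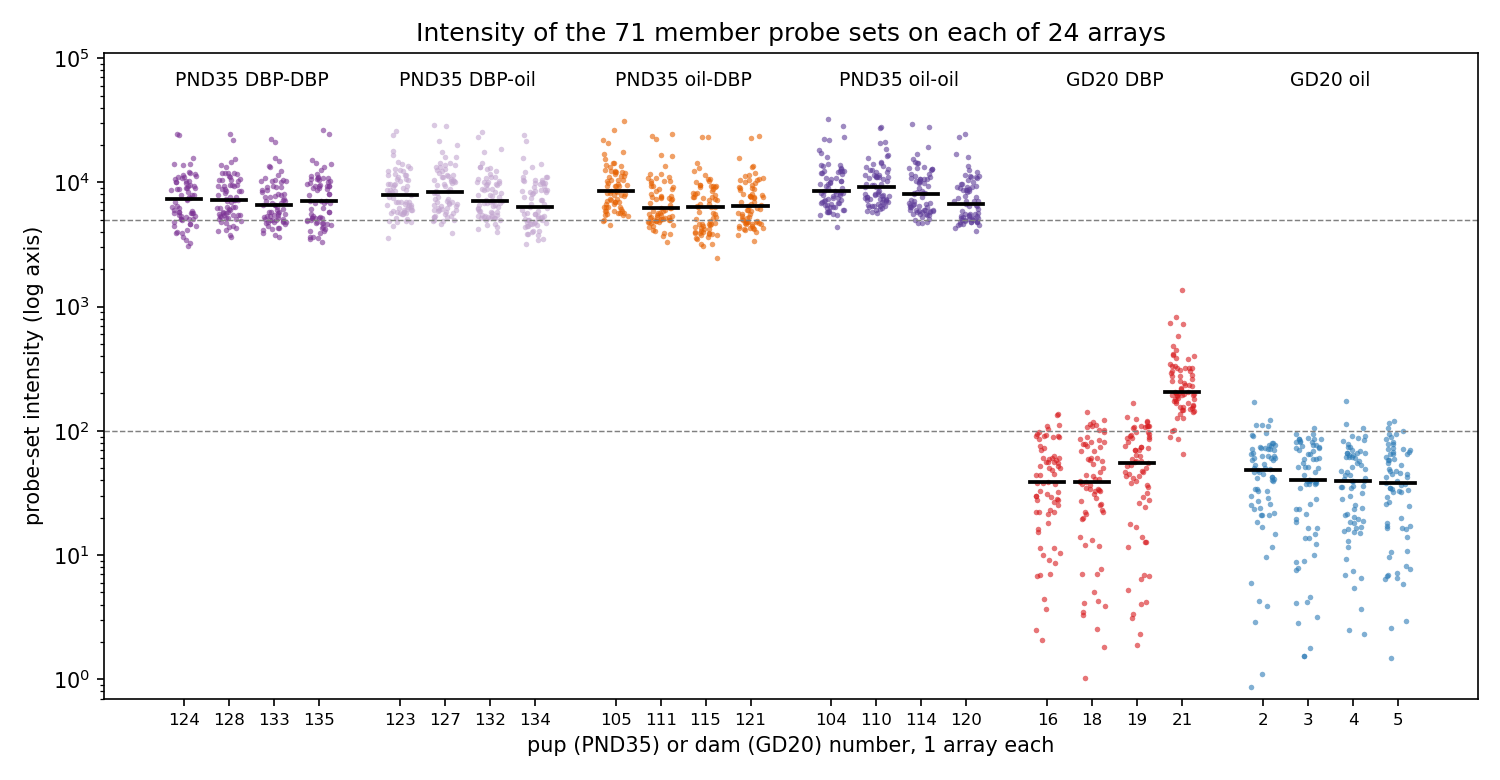
Intensity (log axis) of the 71 members on each of 24 arrays, grouped as PND35 DBP-DBP, DBP-oil, oil-DBP and oil-oil, then GD20 DBP and GD20 oil; each point is a member, black bars are array medians and dashed lines are the thresholds of 5000 and 100. The PND35 arrays lie above the GD20 arrays in every member, and the array of dam 21 (median 205) lies above the other 7 GD20 arrays (medians 37.8 to 55.3).

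The members in the list for the sperm tail and its mitochondrial sheath were the largest named group (8 of 22 listed genes on the array). Not all of the 8 are known as structural parts of the tail. Odf1, a main protein of the outer dense fibers that stiffen the tail, read 15660, 15391, 15585 and 15170 in DBP-DBP pups, against 17806, 21352, 18449 and 15740 in DBP-oil pups. It read 21798, 22424, 14386 and 15571 in oil-DBP pups, and 23007, 21227, 19118 and 16954 in oil-oil pups. The 4 DBP-DBP values lie close together, just below the lowest DBP-oil value, which they overlap once arrays are centred. The oil-DBP pups split into a high and a low pair. At GD20 Odf1 read 55.2, 58.3 and 86.7 in DBP dams 16, 18 and 19, 825 in DBP dam 21, and 63.8 to 66.9 in oil dams.

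Smcp, a cysteine-rich protein of the capsule around sperm mitochondria, had the largest spread within groups of all members, with a median within-group SD of 0.38 on the log2 scale. It read 10955, 11814, 13610 and 10139 in DBP-DBP pups, against 13996, 19898, 13262 and 10504 in DBP-oil pups. It read 15539, 16657, 9339 and 11978 in oil-DBP pups, and 22426, 18421, 14223 and 12589 in oil-oil pups. All 4 groups overlapped. Oaz3, the antizyme of spermatids that restrains polyamine synthesis, averaged 14396 ± 470 in DBP-DBP pups, 16422 ± 1665 in DBP-oil pups, 15685 ± 3655 in oil-DBP pups and 18946 ± 2916 in oil-oil pups (SD, n = 4 each).

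Spata19, a mitochondrial protein of the mouse sperm midpiece, averaged 11048 ± 844 in DBP-DBP, 12524 ± 1656 in DBP-oil, 11533 ± 2174 in oil-DBP and 14104 ± 2219 in oil-oil pups (SD, n = 4 each). Tcp11, which acts in sperm motility in mouse, averaged 9209 ± 794, 10996 ± 1691, 9451 ± 1300 and 11519 ± 1161 in the same 4 groups. Meig1, needed for the manchette that shapes the spermatid head and tail in mouse, had its lowest mean in oil-DBP pups: 9470 ± 1441 in DBP-DBP, 10096 ± 1705 in DBP-oil, 7961 ± 1563 in oil-DBP and 10940 ± 1547 in oil-oil pups. Capza3, an actin-capping subunit of male germ cells, averaged 5905 ± 553 in DBP-DBP, 6620 ± 736 in DBP-oil, 6772 ± 2059 in oil-DBP and 7950 ± 1395 in oil-oil pups. Odf4, another outer dense fiber protein, averaged 5049 ± 525 in DBP-DBP, 5304 ± 772 in DBP-oil, 5072 ± 1200 in oil-DBP and 5970 ± 756 in oil-oil pups. Other members of the tail are Catsperz and C2cd6, parts of the CatSper calcium channel complex in mouse, and Spmap2, Cimip4 and Cabcoco1, named for microtubules or cilia.

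Of 33 listed acrosome and egg-binding genes on the array, 3 were members. Adam3a, a sperm surface protein needed for binding to the zona in mouse, read 10199, 9421, 9191 and 9295 in DBP-DBP pups, against 10303, 10632, 10008 and 8441 in DBP-oil pups. It read 11330, 9810, 7473 and 7934 in oil-DBP and 10220, 12215, 10550 and 8727 in oil-oil pups. Adam32, of the same family, read 7970, 7681, 7115 and 7903 in DBP-DBP, 7917, 8601, 7893 and 7263 in DBP-oil, and 8152, 9784, 8230 and 7126 in oil-oil pups. In oil-DBP pups Adam32 read 8014 in pup 105 and 6278, 6322 and 6248 in the other 3, so that 1 pup stood apart from 3 near-equal values. Zpbp, an acrosomal protein that binds the zona, averaged 6552 ± 601 in DBP-DBP, 6878 ± 719 in DBP-oil, 5892 ± 845 in oil-DBP and 6641 ± 748 in oil-oil pups (SD, n = 4 each). Fam209, a protein of the inner nuclear membrane facing the mouse acrosome, and Cage1, an acrosomal antigen, were members outside that list.

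Of 30 listed kinases, phosphatases and calcium regulators on the array, 4 were members. Tssk2, a serine kinase of spermatids, averaged 4650 ± 538 in DBP-DBP, 5302 ± 537 in DBP-oil, 4868 ± 1124 in oil-DBP and 6136 ± 1174 in oil-oil pups (SD, n = 4 each). Ppp3r2, the testis form of the calcineurin regulatory subunit, averaged 6743 ± 650 in DBP-DBP, 7120 ± 960 in DBP-oil, 6308 ± 1364 in oil-DBP and 7414 ± 804 in oil-oil pups. Cetn1, a centrin of centrioles, averaged 8141 ± 1110 in DBP-DBP, 8305 ± 645 in DBP-oil, 7388 ± 671 in oil-DBP and 8304 ± 621 in oil-oil pups. Insl6, listed with these genes but known as a peptide of the insulin family, averaged 8789 ± 593 in DBP-DBP, 9074 ± 410 in DBP-oil, 9279 ± 2235 in oil-DBP and 10725 ± 1098 in oil-oil pups. Klhl10, an adaptor of a Cul3 ubiquitin ligase needed in mouse spermatids, Marchf11, a membrane ubiquitin ligase, and Ube2d2b, a ubiquitin-conjugating enzyme, were the members that attach ubiquitin. Gtsf1l, related to a piRNA pathway factor, was the 1 member among 29 RNA storage and piRNA genes.

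Members with a part in metabolism or transport were Ldhal6b, a lactate dehydrogenase-like protein, Fbp1, a key enzyme of gluconeogenesis, Dbil5, an endozepine-like acyl-CoA-binding peptide, and the channels Aqp7, which passes water and glycerol, and Aqp11. Ldhal6b averaged 9615 ± 748 in DBP-DBP, 10588 ± 509 in DBP-oil, 8885 ± 1227 in oil-DBP and 10084 ± 824 in oil-oil pups (SD, n = 4 each), one of the 5 smallest spreads within groups. Fbp1 was among the 5 largest: 5991 ± 413 in DBP-DBP, 6208 ± 966 in DBP-oil, 5409 ± 1776 in oil-DBP and 6509 ± 1201 in oil-oil pups. Chrne, a subunit of the acetylcholine receptor of muscle, Kctd16, an auxiliary subunit of GABA-B receptors in brain, and Resp18, first known from endocrine cells, were members with a textbook role outside the testis. Hspb9, a small heat shock protein, averaged 24449 ± 1761 in DBP-DBP, 25996 ± 1809 in DBP-oil, 25369 ± 3888 in oil-DBP and 27774 ± 3750 in oil-oil pups. Cmtm2a, a membrane protein of the chemokine-like MARVEL family, averaged 22808 ± 1554 in DBP-DBP, 24333 ± 3091 in DBP-oil, 24216 ± 1578 in oil-DBP and 27681 ± 2152 in oil-oil pups. Hmgb4, an HMG-box protein of spermatids, and the histone variant H2al2l were the chromatin proteins, though none of the 13 array genes of the list of germ cell chromatin was a member. Garin5a, Plaat1, Ggnbp1, Morn5, Tulp2, Art3, Spata20, Samd13, Tmbim7, Tmem247, Ccdc30, Ccdc96, Fam50b, Fam221b, Arhgap20l1, Jkampl, RSA-14-44, MGC94891, C2h1orf56, C5h8orf88, C8h3orf62, C10h5orf47, 1700009N14Rikl and 1700013D24Rik are the other named members.

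**Figure D3:**
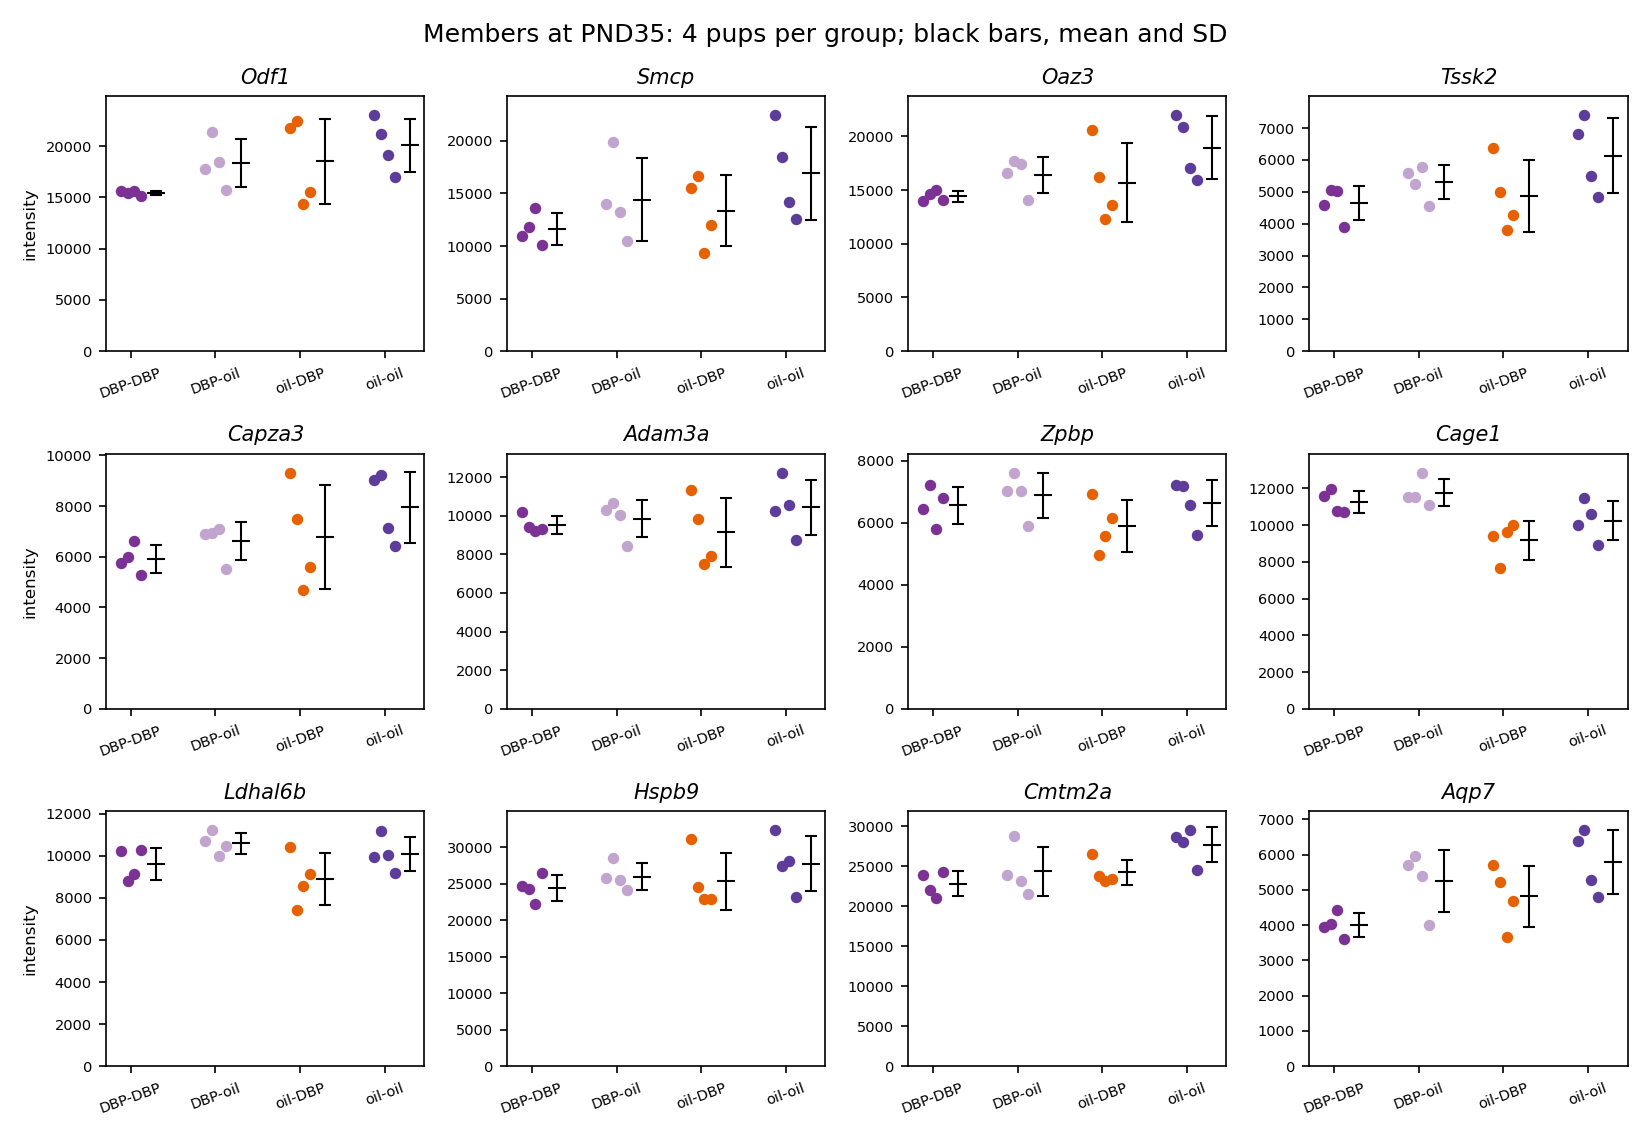
Intensity (linear axis from 0) of 12 members in PND35 DBP-DBP, DBP-oil, oil-DBP and oil-oil pups; points are single pups, black bars the mean and SD (n = 4). Odf1 is tight at 15170 to 15660 in DBP-DBP pups, and in Cage1 all 4 DBP-DBP pups (10743 to 11990) lie above all 4 oil-DBP pups (7650 to 9999).

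Acute DBP at puberty after DBP before birth was tested by setting DBP-DBP against DBP-oil pups, neither of which chose the members. No member passed an adjusted p of 0.05 in limma: 0 of 71 were higher and 0 were lower, against 3.64% of all probe sets called higher and 1.58% called lower. All 71 differences were below 0, as were 60.4% over all probe sets, with a median of −0.12 on the log2 scale (−0.06 over all probe sets) and a range of −0.40 to −0.02. Members were high or low together from pup to pup, so these 71 differences are not independent of each other. An unadjusted p under 0.05 was reached by 3 of 71 members and by 14.9% of all probe sets. No member had all 4 DBP-DBP arrays above all 4 DBP-oil arrays (5.93% of all probe sets) or all 4 below (6.29%).

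The member with the lowest adjusted p was Aqp7, at 3947, 4045, 4428 and 3612 in DBP-DBP pups, against 5697, 5963, 5384 and 4000 in DBP-oil pups. DBP-oil pup 134 lay among the DBP-DBP values and the other 3 lay above all of them. The log2 difference was −0.40 ± 0.14 (SE, limma adjusted p = 0.136). Without pup 134 it was −0.54 (limma adjusted p = 0.0224), the 1 call among members that leaving out a single array of these groups produced (1.07% of all probe sets were called lower there). Tmem247 read 3232, 3624, 3777 and 3321 in DBP-DBP pups and 4486, 4617, 4510 and 3479 in DBP-oil pups, with pup 134 again the low one (−0.30 ± 0.13, limma adjusted p = 0.252). Tcp11 read 10041, 9367, 9296 and 8129 in DBP-DBP pups and 11779, 12921, 10189 and 9097 in DBP-oil pups (−0.27 ± 0.12, limma adjusted p = 0.305). The differences of Smcp (−0.30 ± 0.20, limma adjusted p = 0.532) and Odf1 (−0.26 ± 0.13, limma adjusted p = 0.380) also missed the threshold.

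These differences moved when the DBP-oil pups were split by spike-in class. DBP-oil pups 123 and 127 were of the lower class and pups 132 and 134 of the upper class, as all DBP-DBP pups were. Within the upper class, 33 of 71 differences were below 0 and the median was 0.01 (−0.03 over all probe sets). No member was called there, against 857 of 31042 probe sets called higher and 344 called lower. With pups 132 and 134 as the only DBP-oil pups of that class, spike-in class and single pups cannot be told apart. Against the lower-class DBP-oil pups alone, a comparison added after the data were seen, all 71 were below 0 with a median of −0.27 (−0.08 over all probe sets). There limma called 4 members lower, against 0.989% of all probe sets: Aqp7 (−0.59, adjusted p = 0.0355), Marchf11 (−0.41, adjusted p = 0.0310), C2h1orf56 (−0.48, adjusted p = 0.0446) and Tcp11 (−0.48, adjusted p = 0.0476). The pups kept there, 123 and 127, were the highest DBP-oil pup for 22 and 45 of the 71 members, and pup 134, left out, was the lowest for 67. These 4 calls therefore cannot be told apart from the choice of pups. What the spike-in class stands for, and its part in these differences, was not tested. With quantile normalization 54 of 71 differences were below 0, with a median of −0.06.

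Somatic markers differed between these groups at the same time. Of 9 peritubular myoid markers 7 were called higher in DBP-DBP pups, with summed intensities of 8617 to 9574 in DBP-DBP pups against 5341 to 6768 in DBP-oil pups. Of 9 macrophage and leukocyte markers 3 were called higher (sums of 3803 to 6372 in DBP-DBP and 2656 to 3286 in DBP-oil pups), and of 13 Sertoli markers 2 were called lower, Fabp3 and Inhbb (58013 to 63334 in DBP-DBP and 62603 to 68186 in DBP-oil pups). None of 11 spermatid markers was called, with a median difference of −0.21, and the 8 of them that were not members summed to 67329 to 76910 in DBP-DBP and 68922 to 90910 in DBP-oil pups. Those 8 include Prm1, Tnp1 and Tnp2, which passed both thresholds of the rule and were set aside by symbol. Among 14 Leydig markers Vcam1 was called higher and Cyp17a1 and Nr5a1 lower (sums of 15843 to 18924 in DBP-DBP and 15906 to 21387 in DBP-oil pups). The part of cell composition in the differences of the members was not tested.

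The 9 role lists hold 229 genes on the array that are not members, of which 6 (2.62%) were called higher and 3 (1.31%) lower in DBP-DBP than in DBP-oil pups, against 3.64% and 1.58% of all probe sets. None of the 22 tail genes, 33 acrosome genes, 29 RNA storage genes and 35 ubiquitin and protease genes was called between DBP-DBP and DBP-oil pups. Among kinases, phosphatases and calcium regulators Ppp1r2 was called higher and Prkar2a lower (of 30), and among metabolic genes Pdp1 higher and Scp2 lower (of 42). Egr4 and Hmga1 were higher among 28 transcription genes, Hsph1 and Tesc higher among 21 chaperones, and Rnf8 lower among 13 chromatin genes. None of these was a member. The second probe set of Plaat1, a phospholipase and acyltransferase, is dim (means of 132 in DBP-DBP, 234 in DBP-oil, 148 in oil-DBP and 221 in oil-oil pups) and was called lower in DBP-DBP than in DBP-oil pups (−0.81, limma adjusted p = 0.0397), whereas the member probe set averaged 10878 ± 603 in DBP-DBP and 11489 ± 1278 in DBP-oil pups (−0.09 ± 0.12, limma adjusted p = 0.806). The second probe sets of 6 other member genes were not called.

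DBP before birth, in pups that all received DBP at PND35, was examined by setting DBP-DBP against oil-DBP pups. All DBP-DBP arrays were of the upper and all oil-DBP arrays of the lower spike-in class, so these 8 arrays alone cannot tell fetal exposure and spike-in class apart, and a fit with the class as a term has to take it from the 4 DBP-oil arrays. Of the 71 differences 43 were above and 28 below 0, with a median of 0.02 (0.005 over all probe sets, where 49.1% were below 0) and a range of −0.22 to 0.33. No member was called by limma, and 0.0% of all probe sets were. An unadjusted p under 0.05 was reached by 3 members and by 8.99% of all probe sets. The balance moved with the covariates: with the spike-in class as a term all 71 differences were above 0, with a median of 0.34 (0.04 over all probe sets), 19 members at an unadjusted p under 0.05 (7.51% of all probe sets) and no call in limma (lowest adjusted p = 0.652). With the RNA integrity number as a term 62 were above and 9 below 0, with a median of 0.12 (0.02 over all probe sets), 13 members at an unadjusted p under 0.05 (12.1% of all probe sets) and no call.

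Cage1 was the 1 member whose DBP-DBP arrays all lay above the oil-DBP arrays (2.86% of all probe sets), and none had them all below (2.16%): 11575, 11990, 10762 and 10743 in DBP-DBP pups, against 9413, 7650, 9608 and 9999 in oil-DBP pups. The log2 difference was 0.33 ± 0.10 (SE, limma adjusted p = 0.323). Fam50b read 5620, 6120, 4923 and 5780 in DBP-DBP and 5383, 4065, 4594 and 4644 in oil-DBP pups (0.29 ± 0.11, limma adjusted p = 0.405), where only oil-DBP pup 105 reached the DBP-DBP range. Adam32 differed by 0.22 ± 0.11 (limma adjusted p = 0.552). Without oil-DBP pup 105 the median was 0.16 and 64 of 71 differences were above 0, still with no call.

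Oil-oil pups chose the members, so the contrasts against them are described and not tested. In oil-DBP minus oil-oil all 71 differences were below 0, with a median of −0.31 (−0.08 over all probe sets) and a range of −0.62 to −0.20. In DBP-oil minus oil-oil 66 of 71 were below 0, with a median of −0.14 (−0.01 over all probe sets) and a range of −0.47 to 0.19. The oil-oil mean was the highest of the 4 PND35 group means in 64 of 71 members, a direction that selecting on high oil-oil values favours. The mean of the array medians of the members was 7045 ± 309 in DBP-DBP, 7446 ± 938 in DBP-oil, 6860 ± 1074 in oil-DBP and 8128 ± 1023 in oil-oil pups (SD, n = 4 each).

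Members were high or low together from pup to pup within a group. In oil-DBP pups, pup 105 was the highest of 4 for 67 of 71 members, with a median deviation from the group mean of 0.35 on the log2 scale (0.02 over all probe sets). Each array was centred on its median beforehand, which holds the value over all probe sets near 0. In DBP-oil pups, pup 134 was the lowest for 67 members (median −0.24) and pup 127 the highest for 45 (0.16). In oil-oil pups, pup 120 was the lowest for 68 (−0.23) and pup 110 the highest for 50 (0.19). DBP-DBP pups stayed closest, with medians of −0.10 to 0.08. Pups 105, 134 and 120 were also at the end of their group in the 8 spermatid markers outside the members: their sum was 92764 in pup 105 and 62134 to 66464 in the other 3 oil-DBP pups, 68922 in pup 134 and 77836 to 90910 in the other 3 DBP-oil pups, and 77568 in pup 120 and 87695 to 103630 in the other 3 oil-oil pups. Those 8 markers include Prm1, Tnp1 and Tnp2, which passed both thresholds of the rule and were set aside by symbol, so the sum is not free of the rule. The highest DBP-oil sum was that of pup 132 (90910), whose members lay below the group mean (median −0.05), and not that of pup 127 (85669). Pups 105, 134 and 120 were at the same ends in the sum of the 8 spermatocyte markers, none of them a member. That sum was 76001 in pup 105 and 64031 to 68454 in the other oil-DBP pups. It was 69527 in pup 134 and 70973 to 78711 in the other DBP-oil pups. In pup 120 it was 67901, against 74922 to 79977 in the other oil-oil pups. Sertoli marker sums were 57498 in pup 105 and 70864 to 76354 in the other oil-DBP pups. Among PND35 testes, those of pups 104 and 115 were extracted with Trizol and the others with a column kit. Pup 115 was the lowest oil-DBP pup for 41 members.

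**Figure D4:**
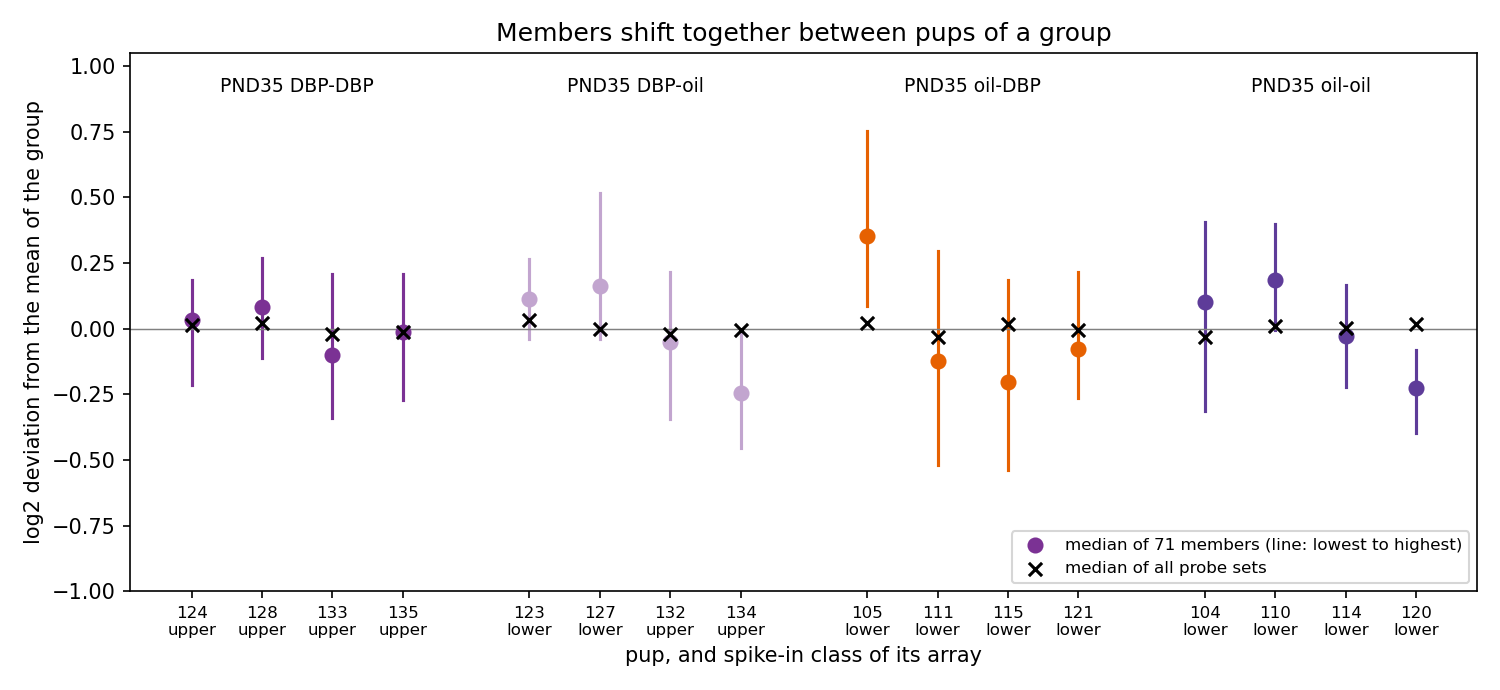
Median log2 deviation of the 71 members from the mean of their group (y axis; line, lowest to highest member) for each PND35 pup, with its spike-in class, in DBP-DBP, DBP-oil, oil-DBP and oil-oil groups; crosses are the median over all 31042 probe sets. Pup 105 lies at 0.35, pup 134 at −0.24 and pup 120 at −0.23. The crosses are held near 0 by the centring of each array on its median.

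The size of these shifts differed between members. The 5 members with the largest median within-group SD were Smcp (0.38), Fbp1 (0.26), C7h12orf54 (0.26), Garin5a (0.26) and Fam209 (0.25) on the log2 scale. The 5 with the smallest were Marchf11 (0.10), Cmtm2a (0.11), Ldhal6b (0.11), Cage1 (0.12) and Cetn1 (0.12). Over the 58 members with a promoter window, the within-group SD and the CG ratio had a Spearman rho of −0.37 across genes, which share the same 16 arrays and are not independent. Marchf11 and Cage1 joined a high ratio with a small SD and Smcp a low ratio with a large one. Against that direction, Garin5a had a high ratio and a large SD, and Cmtm2a a ratio slightly below the member median and a small SD.

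At GD20 the array of DBP dam 21 differed from the other 7 for every member. All 71 members were higher on it than on any other GD20 array, as were 19.2% of all probe sets. The ratio to the highest of the other 7 was 1.49 to 106, with a median of 3.48. Arhgap20l1 read 413 on dam 21 against 3.66, 3.49 and 1.90 on DBP dams 16, 18 and 19 and 1.48 to 3.89 on the oil dams, and Cmtm2a read 1373 against 37.3 to 110 on the other DBP dams and 37.0 to 62.1 on the oil dams. The median of the members was 205 on dam 21, 38.5 to 55.3 on the other DBP arrays and 37.8 to 48.3 on oil arrays. Without dam 21, GD20 DBP minus oil had a median of 0.10 on the log2 scale (−0.01 over all probe sets), with 45 members higher and 26 lower, and with dam 21 the median was 0.57.

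The excess on dam 21 was a narrow range of fractions of the pubertal level. For each member the excess of an array over the mean of the GD20 oil arrays (over the mean of the other 3 for an oil array) was divided by the oil-oil mean less the GD20 oil mean. On dam 21 the excess had a median of 2.20% of the pubertal level, with quartiles of 1.83 and 2.54%, and 67 of 71 members were between 1 and 4%. The medians were 0.01, −0.005 and 0.11% on DBP dams 16, 18 and 19, and −0.03 to 0.05% on the oil dams. The highest members were C5h8orf88 (5.02%), Cmtm2a (4.79%), C10h5orf47 (4.14%), Odf1 (3.80%) and Resp18 (3.13%), and the lowest were Capza3 (0.79%), Fam50b (1.04%), H2al2l (1.29%), Plaat1 (1.31%) and Aqp11 (1.37%). Over the 71 members, the intensity on dam 21 and the oil-oil mean had a Pearson r of 0.86 (log10 scale) and a Spearman rho of 0.86, against a rho of 0.24 for dam 19; the points share the brightness of each probe set.

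Spermatid markers outside the members were high on dam 21 too. All 8 of them exceeded the other 7 GD20 arrays, with a sum of 3761 on dam 21 against 738 to 1068 on the other DBP arrays and 648 to 743 on oil arrays. Of these, Prm1 (1469 on dam 21), Tnp1 (843) and Tnp2 (360) passed both thresholds of the rule and were set aside by symbol. They hold most of that sum and are not free of the rule. The others, Acr, Acrv1, Akap4, Crem and Prm2, read 79.8 to 562 on dam 21. Of 8 spermatocyte markers 5 exceeded the other 7 arrays, and of 7 spermatogonia markers 2 did, with a spermatogonia sum of 3882 on dam 21 against 3846 to 4029 on the other DBP arrays and 3669 to 3840 on oil arrays. Of 2 gonocyte markers, Etv5 and Tex101, 2 did. That list summed to 9292 to 11304 in PND35 oil-oil pups and to 925 to 1019 on GD20 oil arrays. A rise in it therefore need not mean gonocytes. Of somatic lists, 5 of 13 Sertoli and 5 of 14 Leydig markers were highest on dam 21, and 0 of 9 peritubular markers. So were 2 of 9 macrophage and leukocyte, 1 of 7 endothelial and 3 of 8 kidney and adrenal markers. Of 4 blood markers Hbb was, with a blood sum of 42158 against 29229 to 37803 on the other DBP arrays and 28453 to 32278 on oil arrays. The share over all probe sets was 19.2%. Of 3 epididymis markers, Cst11 (68.3) was highest on dam 21, and Adam7 (9.0) and Defb1 (7.9) were near 0 there. The spike-in controls of dams 21 and 19 read 6.44 and 6.60 (mean log2), against 8.17 to 8.77 on the other 6 GD20 arrays. The source of these transcripts on the array of dam 21 was not tested.

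**Figure D5:**
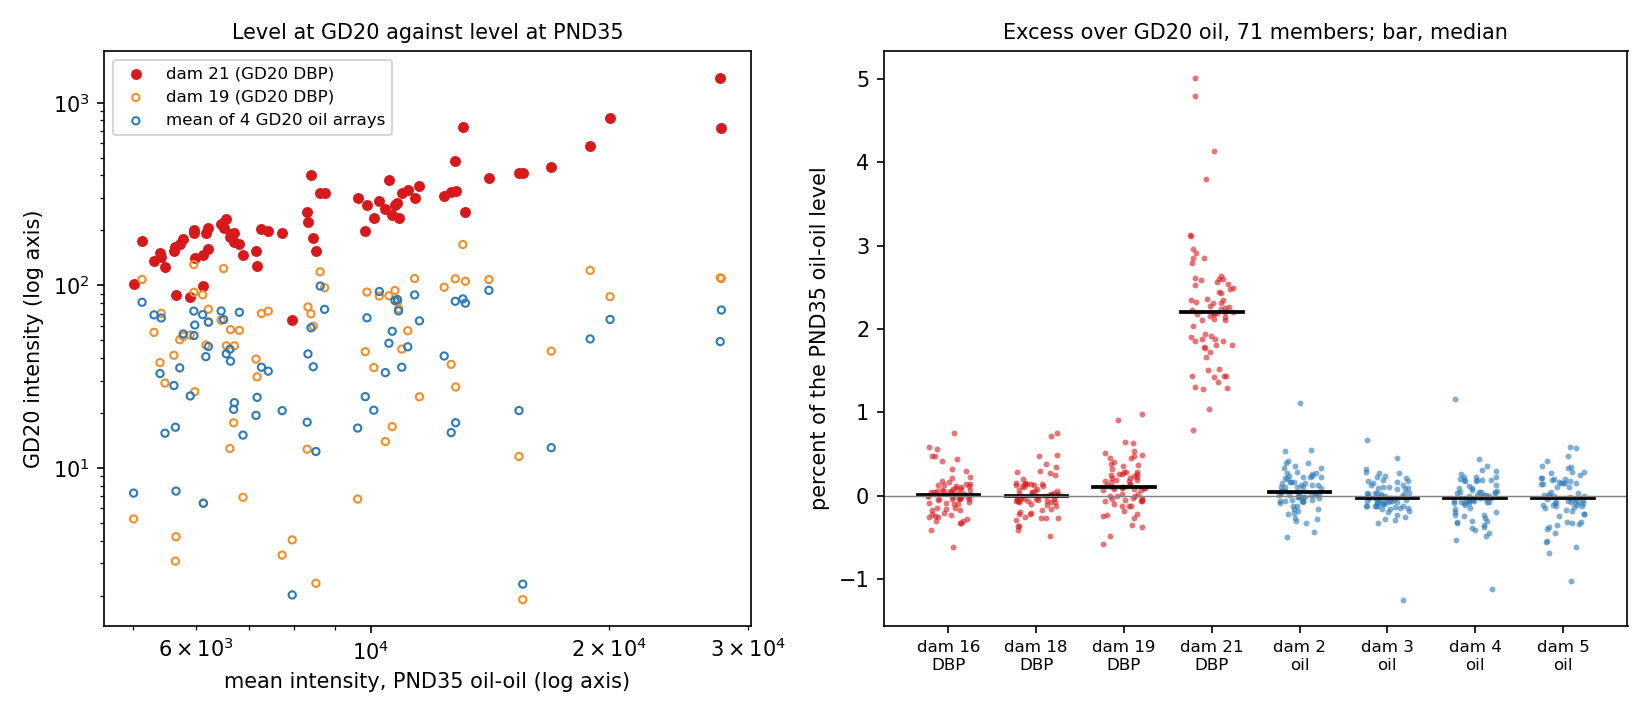
Left, intensity at GD20 against the mean at PND35 oil-oil (both log axes) for the 71 members on DBP dam 21, on DBP dam 19 and as the mean of the 4 oil arrays. Right, the excess over the GD20 oil mean as a percent of the pubertal level for each GD20 array (4 DBP, then 4 oil; bars, medians). On dam 21 the points are higher where the pubertal level is higher and have a median of 2.20%, while the other arrays have medians of −0.03 to 0.11%.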

How the data were processed

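Testis RNA of 24 arrays (4 in each of 6 groups, taken from the sample titles) was available as 1 deposited table of linear signal intensity per probe set and array. Per the submitters' processing notes the authors used GCOS 1.0; the algorithm that summarised probes is stated by neither labels nor file header, and the deposited intensity values already share a trimmed mean. The 57 control probe sets were left out. Of the 31042 others, 20826 had 1 gene symbol, 436 several and 9780 none in the platform annotation.

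For tests, log2(intensity + 16) was centred on the median of each array and fitted over the 16 PND35 arrays with limma 3.58.1 in R 4.3.3 (4 group means, intensity trend, two-sided, Benjamini-Hochberg over all 31042 probe sets, threshold 0.05). The pseudocount of 16 shrinks differences of dim probe sets. Only DBP-DBP against DBP-oil and against oil-DBP were tested. The fit was tested on simulated data. Members, gene lists and marker lists were chosen with earlier results of these data known. Named genes were the leading members of each role list, those next to the thresholds, those with the largest and smallest within-group SD and those highest and lowest on dam 21; Aqp7, Arhgap20l1, Ccdc96 and members named only by role were chosen after their values were seen. Spike-in class was split at the midpoint of the PND35 range of the mean log2 intensity of 24 poly-A control probe sets. The number of arrays, 4 a group, limits the precision. Alternatives of scaling, pseudocount, filtering, weighting, covariates, blocking and left-out arrays were run. Gene spans and promoter windows are RefSeq's for GRCr8.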

Additional observations from a re-analysis of the deposited data

Results flagged for a closer look

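Each result here is a group of 4 arrays in which 1 array lay far from the other 3, measured as its gap to the nearest array over the range of the group, and set against Dixon's 95% critical value for 4 samples. Chance puts about 1 in 20 groups past it. Of 196 groups examined besides the single members on the array of dam 21, 13 were past it, medians over members included. That is near the share put there by chance. Members shift together between pups, so the groups are not independent.

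The GD20 DBP array of dam 21 stood apart from the other 3 DBP arrays in 48 of the 71 members, and the median over members did so too (0.899). In oil-DBP pups, pup 105 stood apart as the high array in the median over members (0.902) and in Adam32 (0.958), Ggnbp1 (0.853), Morn5 (0.888) and Resp18 (0.840). Resp18 read 12047 in pup 105 against 7319, 7285 and 8047 in pups 111, 115 and 121. In DBP-oil pups, pup 134 stood apart as the low array in C5h8orf88 (0.856), Capza3 (0.887), Dbil5 (0.885), Garin5a (0.862) and Tmem247 (0.885). In GD20 oil testes, dam 4 was low in Aqp11 (0.867) and high in Fam209 (0.983), which read 20.8 there and 2.6 to 2.9 in dams 2, 3 and 5.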

How the results depend on the processing

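The counts of members called higher or lower stayed at 0 in both tested comparisons under every other setting tried (limma; 3 members in each comparison had an unadjusted p under 0.05 as reported, and 0 to 20 and 1 to 19 over the settings), but leaving out 1 array gave 0 to 1 member lower in DBP-DBP than in DBP-oil pups, the 1 being Aqp7 without pup 134. Against the 2 lower-class DBP-oil arrays alone, an alternative added after the data were seen, 4 members were lower. Those arrays are of the 2 DBP-oil pups in which the members were highest. The median of DBP-DBP minus DBP-oil was −0.15 to −0.06 on the log2 scale over the scalings, pseudocounts, filters, weights and RNA covariates tried and without any other single array, −0.19 without pup 134, and 0.01 with the spike-in class. The median of DBP-DBP minus oil-DBP lay between −0.05 and 0.34, its sign depending on the setting.

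The number of members depends on the thresholds: 144 with 2500 and 100, 26 with 10000 and 100, 41 with 5000 and 50, and 46 where every array had to pass. Leaving out 1 array at a time gave 67 to 75 members. No paired analysis was possible because no pup or dam number is shared between groups; a replicate block of adjacent pup numbers (consensus correlation 0.05) gave 0 and 0 calls. Members below 100 at GD20 sit near the floor of the array, so ratios between the ages are imprecise.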
